A study of Mus musculus with 502 samples.

Results

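The subject is a set of 2675 regions of the human autosomes that were listed as silencers in 293T and in K562 but not in LNCap. A silencer is a stretch of DNA that lowers the activity of a promoter. Silencers were mapped by Ss-STARR-seq, a reporter assay in which genomic fragments are cloned into a plasmid, carried into cells by transfection and compared between the plasmid DNA (input) and the RNA made from it (output). 293T descends from human embryonic kidney cells, K562 from a leukaemia with erythroid features, and LNCap from an androgen-sensitive prostate cancer. All 3 are established lines, and the characteristics in the labels name the line and no treatment or time point. Labels cover 461 output RNA libraries (102 of 293T, 180 of K562, 179 of LNCap) and 41 input DNA libraries (1 of 293T, 40 of LNCap). These labels give the organism as mouse, although the lines are human and the build named is hg38.

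The regions were chosen by the positions in the authors' 3 deposited silencer lists, 1 per line. Intervals of the lists on chromosomes 1 to 22 that overlapped by at least 1 bp were merged, and a region was kept where it held a silencer of 293T and one of K562 and none of LNCap. This left 2675 of 350588 merged regions, which is 0.763%. With all 3 lists cut at a score of at least 2.2 the number was 1409, and at 2.5 it was 570. Their sharing by 293T and K562 and their lack of LNCap are therefore the rule and not a result. The data have no replicate lists, so no difference between lines was tested. Silencers that LNCap lacks and silencers that went undetected in LNCap cannot be told apart. Intervals on shares below are 95% Wilson intervals, which treat regions as independent and cover counting error only; the read depth behind each call is unknown.

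Silencing in human cells is carried by several kinds of machinery. Polycomb complexes compact chromatin over developmental genes. The factor REST recruits histone deacetylases to neuronal genes outside neurons, and zinc finger proteins of the KRAB family recruit TRIM28 to repeated DNA. A reporter plasmid tests a fragment outside its own chromosome, so it reads the action of the factors present in the transfected cells. No gene or sequence is given for the regions, because the reference tables used here are of the mouse and positions on hg38 could not be set against them.

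The silencers that met in a region were short and lay close together. The regions had a median width of 150 bp, with quartiles of 99 and 231.5 bp and a range of 50 to 1000 bp. In 2543 of them (95.1%, interval 94.2 to 95.8) 1 silencer of 293T met 1 of K562. The other 132 held more than 1 silencer of a line, 79 of them more than 1 of 293T and 56 more than 1 of K562. The lists are mostly built of 50 bp windows, and so were the shared bases. The median was 50 shared bases, with quartiles of 30 and 50, and 981 regions (36.7%, interval 34.9 to 38.5) shared exactly 50. The median was 29.5 when intervals up to 50 bp apart were also merged. At least 100 bases were shared in 360 regions (13.5%) and at least 200 in 51 (1.91%). Shared bases added up to 30.4% of the regions' total length.

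The midpoints of the 293T and the K562 silencer lay within 50 bp of each other in 1773 regions (66.3%, interval 64.5 to 68.0) and within 150 bp in 2601 (97.2%). These distances are shorter than the cloned fragments, which were sheared to 300 to 400 bp, so that a fragment covering one silencer could cover much of the other. Neither line lay ahead along the chromosome. The 293T midpoint had the higher coordinate in 1229 regions and the K562 midpoint in 1280, and 166 had the same midpoint. Identical starts and ends occurred in 130 regions (4.86%, interval 4.11 to 5.74). The 293T silencer lay inside a wider K562 silencer in 590 regions and the reverse held in 503. In 1452 regions (54.3%, interval 52.4 to 56.2) the silencers overlapped only in part.

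**Figure D1:**
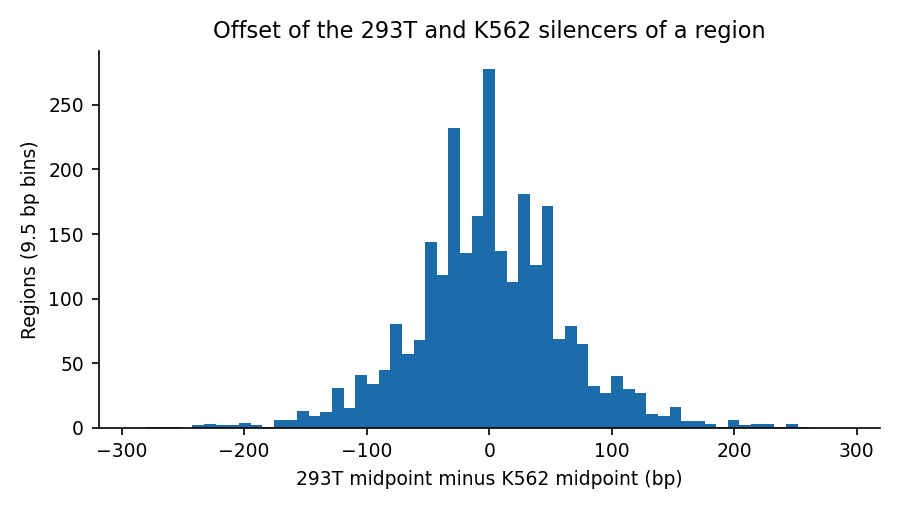
Histogram of the distance in bp from the K562 midpoint to the 293T midpoint for the pair of silencers with most shared bases in each of the 2675 regions, in bins of 9.5 bp. The distances centre on 0 with no shift to either side, and 1773 regions lie within 50 bp.

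The fit of the silencers can be set beside that of the other pairs of lines. In the 17947 regions held by K562 and LNCap and not by 293T, at least 100 bases were shared in 26.4% (interval 25.8 to 27.1), against 13.5% for 293T and K562. Identical starts and ends made up 7.77% (interval 7.39 to 8.17), against 4.86%. The 2976 regions of 293T and LNCap without K562 lay close to the 293T and K562 regions, at 13.3% and 3.73%. The 2 pairs with 293T thus resembled each other in how their silencers fitted, a comparison that was not tested.

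Silencers in these regions were wider than those found in 1 line alone. In the 293T list, 51.3% (interval 49.4 to 53.2) of the 2755 silencers in the regions were exactly 50 bp wide, against 65.4% of the 111927 silencers that 293T held alone. In the K562 list the shares were 45.4% (interval 43.6 to 47.3) of 2732 and 62.4% of 105494. Widths of 200 bp or more made up 16.7% and 16.8% in the regions, against 7.24% and 7.32% alone. A wider silencer has more room to share 1 base with the other line, and also to meet a LNCap silencer, which the rule excludes. How far the rule shaped these widths was not tested. Median region widths of the other pairs were alike, at 150 bp for 293T and LNCap without K562 and 151 bp for K562 and LNCap without 293T.

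The edge of the rule can be seen in single pairs. Exactly 1 shared base joined 52 regions (1.94%), and 252 (9.42%) had at most 10. On chromosome 1, the 293T silencer at 21947902 to 21947952 (score 2.2) met the K562 silencer at 21947753 to 21947903 (score 2.9) by 1 base. Another such pair on chromosome 1 was 222254500 to 222254550 in 293T (score 2.1) and 222254451 to 222254501 in K562 (score 2.3). The third was 242276550 to 242276601 in 293T (score 3.6) and 242276500 to 242276551 in K562 (score 2). In each of these pairs the end of the K562 silencer was the base at which the 293T silencer began. Just outside the rule stood 436 pairs of neighbouring 293T and K562 silencers that touched with no shared base. On chromosome 1 such pairs lay at 899051 to 899101 (293T, score 2.1) with 899101 to 899251 (K562, score 2.5), at 10527201 to 10527251 (293T, score 2.2) with 10527251 to 10527301 (K562, score 3.3), and at 14232851 to 14232951 (293T, score 2.4) with 14232951 to 14233001 (K562, score 2.4). Whether touching intervals share a base depends on whether coordinates count from 0 or 1, which is not stated; with touching counted as overlap the number of regions was 2982.

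The authors gave each silencer an activity score of at least 2, with 1 decimal and an unstated scale, so scores were compared only within a list. A region's score in a line is the highest of its silencers there. In the 293T list the regions had a median score of 2.4 (quartiles 2.1 and 2.8, highest 7.7), and the mean was 2.58 ± 0.65 (SD over 2675 regions). In the K562 list the median was 2.3 (quartiles 2.1 and 2.6, highest 6.4) and the mean 2.45 ± 0.52. Regions held by 293T alone had a median of 2.3 and a mean of 2.46 ± 0.56 (SD over 111925 regions with a finite score), and those held by K562 alone 2.2 and 2.36 ± 0.46 (SD over 105466).

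The upper end of the lists showed the shift more plainly. A score at or above the 293T list's upper quartile of 2.6 was reached by 1016 of the 2675 regions (38.0%, interval 36.2 to 39.8), against 29.6% of all autosomal regions with a 293T silencer and 29.1% of those held by 293T alone. The share was higher than in regions of 293T alone on 20 of 22 autosomes. In K562, 951 regions (35.6%, interval 33.8 to 37.4) reached that list's upper quartile of 2.5, against 29.1% of all autosomal regions with a K562 silencer and 27.3% of those held by K562 alone, and the share was higher than in K562 alone on 21 of 22 autosomes. Among silencers of exactly 50 bp the shares were 39.8% in the regions and 29.2% alone for 293T, and 40.2% and 27.9% for K562. In regions that all 3 lists held the share was 40.6% (interval 37.9 to 43.3) for 293T, which overlaps the interval above, and 41.9% (interval 39.2 to 44.6) for K562, which does not. The pairs with LNCap showed raised shares too. In the 293T and LNCap regions without K562, 34.1% (interval 32.4 to 35.8) reached the 293T upper quartile, and in the K562 and LNCap regions without 293T, 38.1% (interval 37.3 to 38.8) reached that of K562. High scores were therefore not particular to the regions of 293T and K562. At the other end, the lowest score of 2 was given to 14.1% of the regions in 293T and 18.4% in K562, against 19.01% in regions of 293T alone and 24.3% in regions of K562 alone.

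A region's rank in one list said little about its rank in the other. The Spearman correlation of the 293T and K562 scores was 0.12 over the 2675 regions, which share the cut at 2 and many tied scores. It was 0.18 over the 596 regions in which both silencers were exactly 50 bp wide and 0.10 over the 130 with identical ends. Over the 1141 regions with fewer than 50 shared bases it was 0.19, and over the 360 with at least 100 it was 0.02. Over the 529 in which both silencers were 100 bp or wider it was 0.14. The same 2 classes of shared bases gave 0.16 and 0.21 in the 293T and LNCap regions without K562. In the K562 and LNCap regions without 293T they gave 0.28 and 0.26. No common trend with shared bases was thus seen. The correlation of the 293T and K562 scores was above 0 on 20 of 22 autosomes. For comparison, it was 0.17 over the 293T and LNCap regions without K562 and 0.27 over the K562 and LNCap regions without 293T. These are descriptions across regions, which are not replicates.

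Both lists placed a region in their upper quartile in 415 cases (15.5%, interval 14.2 to 16.9). Of the 1016 regions with a high 293T score, 40.8% (interval 37.9 to 43.9) also had a high K562 score, against 32.3% (interval 30.1 to 34.6) of the rest. On within-list percentiles, in which tied scores share a middle rank, 1352 regions ranked higher in 293T and 1323 in K562. The percentiles lay within 25 of each other in 1281 regions (47.9%). They differed by 50 or more toward 293T in 288 and toward K562 in 262. Scores of 3 or more in both lines were found in 106 regions (3.96%), and scores of 4 or more in both in 8.

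**Figure D2:**
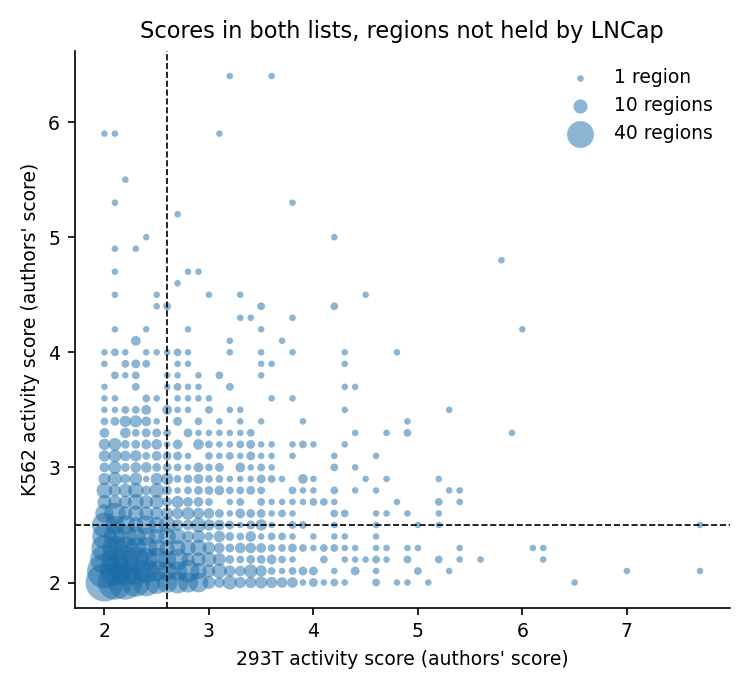
Activity score in 293T (horizontal) against K562 (vertical) for the 2675 regions, with point area growing with the number of regions at a pair of scores. Dashed lines mark each list's upper quartile (2.6 and 2.5), and 415 regions lie at or above both. Most regions score low in each list, so the highest scores of each mostly pair with low scores of the other. The Spearman correlation is weakly positive, at 0.12.

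Of the 10 regions that ranked highest in both lists, 5 were narrower than the median of 150 bp. The region with the highest lower percentile lay on chromosome 11 at 129816851 to 129816910 (hg38), with a score of 5.8 in 293T and 4.8 in K562. Both silencers were 50 bp wide, they started 9 bp apart and shared 41 bases. The next, on chromosome 16 at 3108200 to 3108289, scored 6 in 293T and 4.2 in K562, and its 50 bp K562 silencer lay inside the 89 bp 293T silencer. That on chromosome 17 at 51228831 to 51228889 scored 4.5 in each list, from 50 bp silencers that shared 42 bases. The silencers of these 3 regions overlapped closely, and the nearest LNCap silencers lay 8542, 6393 and 2780 bp away.

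Others of the 10 highest rested on little overlap. On chromosome 8, 43008701 to 43008851 scored 4.8 in 293T and 4 in K562, but its silencers shared 1 base. On chromosome 20, 12672902 to 12673181 scored 4.2 and 5 with 2 shared bases, and a LNCap silencer lay 2 bp away. On chromosome 7, 16048091 to 16048476 scored 4.2 and 4.4 with 15 shared bases and midpoints 185 bp apart. In these 3 the high scores of the lines belonged to largely separate bases. The remaining 4 were on chromosome 10 at 46126900 to 46127051 (4.3 and 4), chromosome 1 at 212198051 to 212198251 (4.3 and 3.9) and 161244250 to 161244362 (4.2 and 4.4), and chromosome 6 at 121486801 to 121486871 (4.4 and 3.7), each with 30 to 50 shared bases.

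In some regions the lists gave opposite ranks. Toward 293T the difference was greatest on chromosome 7 at 139806031 to 139806141, with 6.5 in 293T and 2 in K562. It was followed by chromosome 6 at 55123361 to 55123461 (5.1 and 2), chromosome 3 at 177135784 to 177135988 (4.9 and 2), chromosome 8 at 49863001 to 49863451 (4.8 and 2) and chromosome 4 at 163582319 to 163582415 (4.6 and 2). Toward K562 it was greatest on chromosome 3 at 181822850 to 181822971, with 2 in 293T and 5.9 in K562. In that region the 50 bp 293T silencer lay inside the 121 bp K562 silencer, with midpoints 0.5 bp apart. Next came chromosome 10 at 37713750 to 37713800, where the same 50 bp window scored 2 in 293T and 4 in K562. Chromosome 3 at 8592627 to 8592817 (2 and 3.9), chromosome 6 at 113170703 to 113170801 (2 and 3.7) and chromosome 14 at 35759809 to 35760000 (2 and 3.6) completed the 5.

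The widest overlaps had modest scores. The most shared bases were found on chromosome 5 at 179910601 to 179911151, where 431 bases were shared by a 293T silencer scoring 2.4 and 2 K562 silencers scoring up to 2.1, and a LNCap silencer touched the region. Chromosome 1 at 45697801 to 45698251 shared 400 bases (scores 2.2 and 2), and chromosome 18 at 75737838 to 75738238 shared 350 (2.3 and 2.2). Chromosome 11 at 63977051 to 63977751 shared 345 (2.7 and 2.1) among 3 silencers of 293T and 2 of K562, and chromosome 13 at 61531200 to 61531665 shared 336 (2.4 and 2). In each of these 5 the 293T percentile was the higher.

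How far LNCap was from holding the regions was read from 2 measures. The first is the share of regions common to 293T and K562 that LNCap left out. Of 3974 regions held by both, 2675 had no LNCap silencer (67.3%, interval 65.8 to 68.8). In 201 of the 3974, all held by LNCap, the 293T and K562 silencers did not meet and were joined through LNCap alone; among the 3773 that met directly the share was 70.9% (interval 69.4 to 72.3). For the other pairs, K562 was missing from 69.6% (interval 68.2 to 71.0) of 4275 regions of 293T and LNCap, and 293T from 93.3% (interval 92.9 to 93.6) of 19246 regions of K562 and LNCap. Leaving out the third list was thus about as common for LNCap as for K562 among regions of 293T. Of the 118875 autosomal regions with a finite 293T score, LNCap held 2976 without K562 and 1299 with it. Of the 127385 with a finite K562 score, LNCap held 17945 without 293T and 1299 with it. LNCap thus held a larger share of the regions common to 293T and K562 than of all regions of either line, which was not tested. The 1299 include the 201 joined through LNCap alone. Median widths were 150 bp for the 2675 regions and 270 bp for those of all 3 lists, against 50 bp for regions of 1 line. The excess was not particular to LNCap. K562 held 1299 of the 4275 regions of 293T and LNCap, against 3974 of the 118875 with a finite 293T score.

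The share that LNCap left out was lower at higher K562 scores. The share is taken over all 3974 regions held by 293T and K562, which include the 201 joined through LNCap alone. It was 71.8% (interval 69.2 to 74.2) at K562 scores of 2 to 2.1, 67.2% at 2.2 to 2.4, 66.6% at 2.5 to 2.9, 60.0% (interval 55.6 to 64.2) at 3 to 3.9, and 55.1% (interval 45.7 to 64.2) of 107 regions at 4 and above. Among K562 silencers of exactly 50 bp it went from 81.1% (interval 77.4 to 84.3) in the lowest class to 57.1% (interval 44.1 to 69.2) of 56 regions in the highest. By 293T score the range was narrow, from 68.5% (interval 65.6 to 71.3) in the lowest class to 64.8% (interval 57.7 to 71.4) of 182 regions in the highest. Whether this pattern differs between the lines was not tested. The pattern by K562 score was not particular to regions that 293T held. Among K562 regions without 293T, 38.1% of those with LNCap reached the K562 upper quartile, against 27.3% of those without LNCap.

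**Figure D3:**
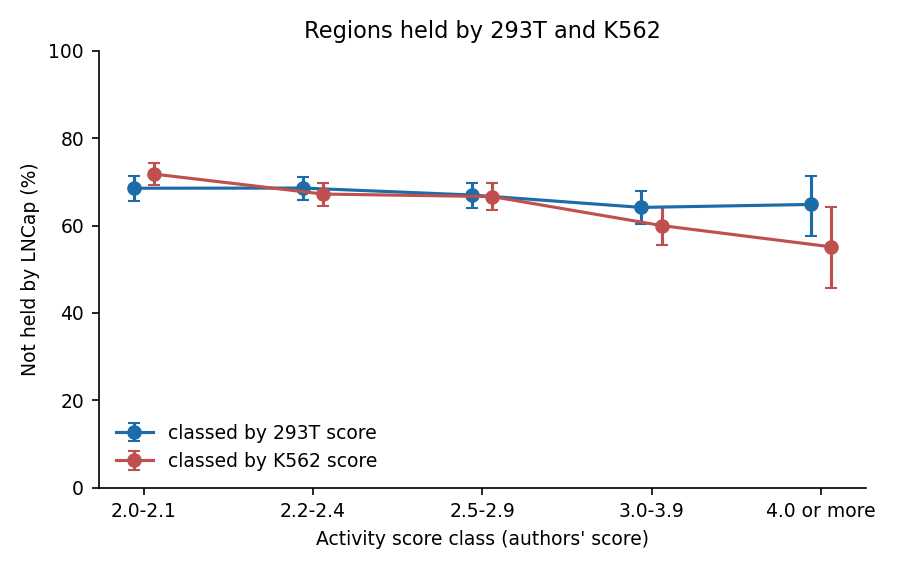
Share in percent of the regions held by 293T and K562 that hold no LNCap silencer, by class of the 293T score (blue) or of the K562 score (red), with 95% Wilson intervals as bars. By K562 score the share goes from 71.8% to 55.1%, and by 293T score from 68.5% to 64.8%.

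The share was also lower for wider K562 silencers, going from 74.3% (interval 72.1 to 76.4) at exactly 50 bp to 46.3% (interval 42.6 to 50.1) above 200 bp. By width of the 293T silencer it went from 68.2% (interval 66.1 to 70.2) to 64.4% (interval 60.0 to 68.5). With 200 or more shared bases LNCap left out 41.5% (interval 33.1 to 50.3) of 123 regions. Wide regions give a LNCap silencer more room to overlap, and the part of width in these shares was not tested.

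The second measure is the distance to the nearest LNCap silencer. Its median was 5050 bp for the 293T and K562 regions, 5808 bp for regions of K562 alone and 7164 bp for regions of 293T alone. A LNCap silencer lay within 1000 bp of 549 regions (20.5%, interval 19.04 to 22.1), against 15.7% of all autosomal regions without a LNCap silencer, 19.2% (interval 18.96 to 19.4) of those of K562 alone and 12.4% (interval 12.2 to 12.6) of those of 293T alone. The share was above that of 293T alone on 21 of 22 autosomes and above that of K562 alone on 15. In this share the regions lay nearer to K562 alone than to 293T alone. With intervals up to 50 bp apart merged, the shares were 12.9% in the regions, 13.2% for K562 alone and 10.4% for 293T alone. With scores of at least 2.5 in every list they were 9.47% (interval 7.33 to 12.2), 10.7% and 5.65%. Under both choices the regions lay slightly below K562 alone, with an interval that includes its value, and above 293T alone. Region width made little difference: in regions of 50 to 99 bp the shares were 21.8% (interval 18.8 to 25.02), 19.5% for K562 alone and 12.4% for 293T alone.

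**Figure D4:**
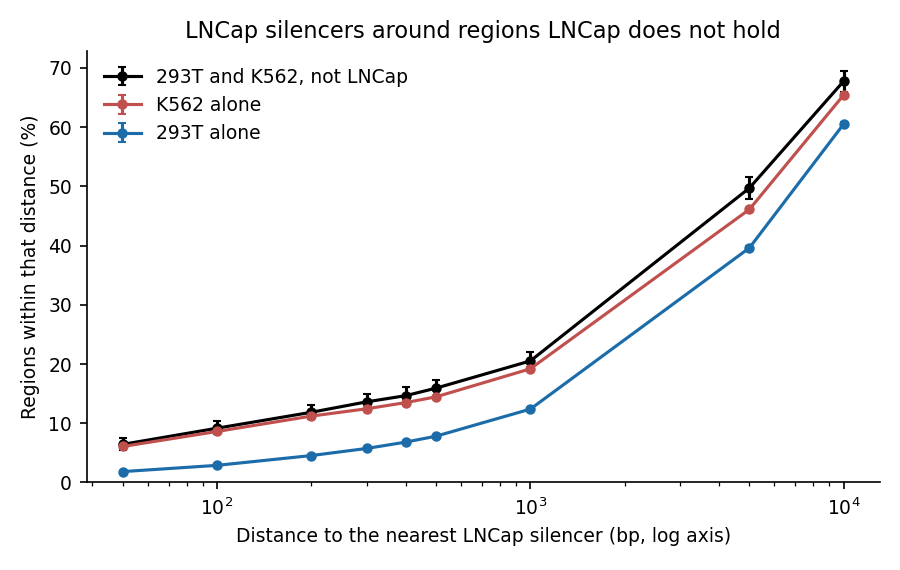
Share in percent of regions with a LNCap silencer within a given distance (log axis, bp), for the 293T and K562 regions (black), regions of K562 alone (red) and of 293T alone (blue), with 95% Wilson intervals. At 1000 bp the values are 20.5%, 19.2% and 12.4%.

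Some of the regions only narrowly lacked LNCap. A LNCap silencer touched 54 of them (2.02%) without a shared base, lay within 50 bp of 172 (6.43%) and within 100 bp of 245 (9.16%, interval 8.12 to 10.3). Within 100 bp the share was 8.61% for regions of K562 alone, which lies inside that interval, and 2.88% for regions of 293T alone. A K562 silencer lay within 100 bp of 7.49% of the 293T and LNCap regions without K562. Narrow misses were therefore not particular to the regions of 293T and K562. In 392 regions (14.7%, interval 13.4 to 16.05) a LNCap silencer lay within 400 bp, the length of the longest cloned fragment. The share was 13.5% for K562 alone and 6.81% for 293T alone. A fragment can reach both silencers only where the gap is shorter than the fragment, so gaps close to 400 bp leave little or no room for this. At the far end, 862 regions had no LNCap silencer within 10000 bp, and the greatest distance was 136849 bp. Among the 245 regions with LNCap within 100 bp, the LNCap silencer was nearer to the K562 silencer in 132 (53.9%, interval 47.6 to 60.0), nearer to the 293T silencer in 81 (33.1%, interval 27.5 to 39.2) and equally near in 32. In 132 of the 245 the LNCap silencer started off the common 50 bp grid; the K562 silencer had the same start offset in 38 of these (28.8%, interval 21.8 to 37.0) and the 293T silencer in 6 (4.55%, interval 2.0996 to 9.56). Flanking LNCap silencers thus shared their window layout with K562 more often than with 293T, and the cause was not tested. A like contrast was seen away from these flanks. Starts differed by a multiple of 50 bp in 35.3% of the K562 and LNCap regions without 293T. The share was 20.6% in the 293T and LNCap regions without K562 and 21.9% in the 293T and K562 regions.

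High K562 scores were more frequent in the regions nearest to LNCap. In K562, 43.3% (interval 37.2 to 49.5) of the 245 regions with LNCap within 100 bp reached the upper quartile, against 35.2% (interval 30.04 to 40.7) of the 304 beyond 100 and up to 1000 bp, 34.4% (interval 31.8 to 37.1) of the 1264 beyond 1000 and up to 10000 bp and 35.2% (interval 32.0 to 38.4) of the 862 beyond 10000 bp. The nearest class overlapped the others in its interval except that of the 1264 regions. In 293T, 98 of the 245 (interval 34.1 to 46.2%) reached it, against 36.2%, 38.6% and 37.1% in the farther classes, and all 4 intervals overlapped. The difference between classes was not tested.

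The surroundings of the regions held silencers of all 3 lines. Within 5000 bp on either side, 51.3% (interval 49.4 to 53.1) had a further 293T silencer and 52.3% (interval 50.4 to 54.2) a further K562 silencer. Around regions of 293T alone, a further 293T silencer was about as common (50.5%), whereas a K562 silencer was found at 39.2% (interval 39.0 to 39.5). Around regions of K562 alone, the shares were 51.2% for K562 and 37.7% (interval 37.4 to 38.0) for 293T. A LNCap silencer was found within 5000 bp of 49.4% (interval 47.5 to 51.3) of the regions, above the 39.3% around regions of 293T alone and the 45.9% around regions of K562 alone. The 293T and LNCap regions without K562 showed a like pattern, with a further 293T silencer at 51.7%, a LNCap silencer at 54.3% and a K562 silencer at 46.1% (interval 44.3 to 47.9). Neighbouring silencers of the line that lacks the region were thus not particular to the regions of 293T and K562.

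The median distance from a region to the nearest other such region was 300052 bp. Another lay within 500 bp of 74 regions (2.77%, interval 2.21 to 3.46), forming 37 pairs. The 2976 regions of 293T and LNCap without K562 gave 241950 bp and 2.79% (interval 2.26 to 3.44). For the 17947 regions of K562 and LNCap without 293T the values were 39276 bp and 5.76%. Such distances depend on the number of regions in a class, and whether the regions bunch was not tested. Of 2762 bins of 1 Mb with a silencer region, 1591 held at least 1 of the 2675 regions and 91 held 4 or more. Within 5 Mb of a chromosome end lay 7.40% (interval 6.47 to 8.46), against 5.81% of regions of 293T alone and 7.17% of K562 alone; ends were taken as position 0 and the highest end in any list.

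The fullest bin was on chromosome 19 from 47 to 48 Mb, with 9 regions among 86 silencers of 293T, 152 of K562 and 138 of LNCap. A pair of regions there, 47060815 to 47060915 and 47060951 to 47061301, lay 36 bp apart, with scores of 2.3 and 2.4 in 293T and 2.6 and 2 in K562. The highest 293T score of the 9 was 2.5 and the highest K562 score 2.6. Next were the bins on chromosome 19 from 17 to 18 Mb and on chromosome 20 from 34 to 35 Mb, with 7 each. The former held the window 17396650 to 17396701, listed identically by both lines, with a score of 2.8 in 293T and 4.7 in K562, and the identical window 17561101 to 17561151 (3.4 and 2.1). The latter held 34902969 to 34903119, with 3 in 293T and 3.6 in K562. Bins with 6 numbered 6, of which the first in chromosome order are named. Chromosome 3 held such bins from 186 to 187 Mb and from 196 to 197 Mb. In the second of these, 196862451 to 196862537 scored 4 in 293T and 3.2 in K562, with a LNCap silencer 51 bp away.

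By chromosome, the regions were unevenly spread. Chromosome 19 held 126 of them (4.71%, interval 3.97 to 5.58), against 3.57% of all merged regions, 2.84% of 293T regions and 3.97% of K562 regions. Of the 3974 regions that 293T and K562 held with or without LNCap, 225 lay there, a larger share than the 126 of 2675. The density of the regions on chromosome 19 was 2.1502 per Mb, the highest of the autosomes, followed by 1.502 on chromosome 17. Silencers of both lists were also densest on chromosome 19, at 58.2 per Mb for 293T and 87.7 per Mb for K562. Densities here divide by the distance from position 0 to the highest end in any list, which on the acrocentric chromosomes 13, 14, 15, 21 and 22 takes in a short arm that can hold few silencers, so the low end of the order is not given. Chromosome 19 is rich in genes and in KRAB zinc finger clusters. As a share of the 293T regions of a chromosome, they were most frequent on chromosomes 21 (3.74%, interval 2.80 to 4.99) and 19 (3.73%, interval 3.14 to 4.42) and least frequent on chromosomes 4 (1.67%, interval 1.43 to 1.95) and 5 (1.70%, interval 1.43 to 2.01). As a share of K562 regions they were most frequent on chromosome 21 (3.01%, interval 2.25 to 4.01) and least on chromosome 5 (1.72%, interval 1.45 to 2.04). Chromosome 19 was less exceptional on that measure, at 2.49% (interval 2.096 to 2.96).

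LNCap left out fewest of the regions held by 293T and K562 on chromosomes 22 (55.6% of 63, interval 43.3 to 67.2), 19 (56.0% of 225, interval 49.5 to 62.3) and 17 (58.1% of 215, interval 51.5 to 64.5). It left out most on chromosomes 21 (75.9% of 58, interval 63.5 to 85.0) and 2 (75.2% of 330, interval 70.2 to 79.5). LNCap silencers were densest on chromosomes 19 (93.7 per Mb) and 17 (64.1 per Mb). Over the 22 autosomes the share left out and the LNCap density, with the same denominator, had a Spearman correlation of -0.20.

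**Figure D5:**
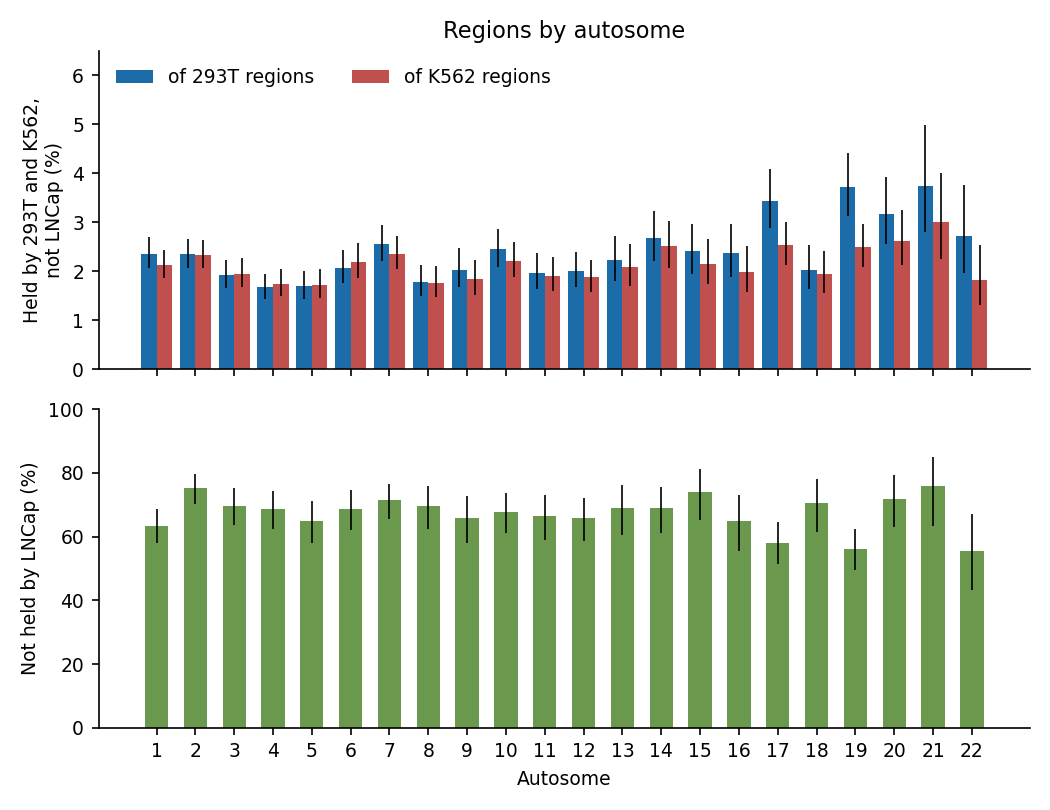
Upper panel, the 293T and K562 regions without LNCap as a percentage of all 293T regions (blue) and all K562 regions (red) of each autosome; lower panel, the percentage of regions held by 293T and K562 that LNCap does not hold. Lines are 95% Wilson intervals; chromosomes 19 and 21 stand high among 293T regions at 3.73% and 3.74%, and chromosomes 17, 19 and 22 stand low in the lower panel at 58.1%, 56.0% and 55.6%.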

How the data were processed

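Ss-STARR-seq libraries of 293T, K562 and LNCap were represented by 1 silencer list per line. Reads were handled with Bowtie2 and SAMtools on hg38, per the submitters' processing notes; how regions were called, with which thresholds and input, and how libraries were pooled is not stated in those sources. Activity is a score that the authors deposited with 1 decimal, on a scale not stated in the file headers; start and end are positions in bp per the file headers, read as half-open.

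Broken lines were left out, as were those wider than 5000 bp, with an end at or before the start, or outside chromosomes 1 to 22, X and Y (58, 12 and 25), leaving 125249, 134159 and 137728 silencers in the order 293T, K562, LNCap. Autosomal intervals sharing at least 1 bp were merged. No region followed here held an infinite score. Where a region held several silencers of a line, positions describe the pair with most shared bases, shared bases are summed over all pairs and the score is the highest. Upper quartiles and percentiles were taken over each list's finite scores.

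Regions, gene lists and measures were chosen with earlier results of these data known. Named regions are the 10 with the highest lower percentile, 5 with the greatest difference each way, 5 with most shared bases, 3 on each side of the overlap rule, and the 5 fullest bins of 1 Mb. Within those bins, the regions printed were chosen after their values were seen. There are no replicate lists, so nothing was tested. Gene lists, gene positions and base composition could not be applied without a human annotation. The merging was tested on simulated intervals. The software was Python 3.11.15 with scipy 1.17.1, pandas 2.3.3, numpy 2.4.6 and, for plots, matplotlib 3.10.9.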

Additional observations from a re-analysis of the deposited data

Results flagged for a closer look

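Chromosome X was left out above because the regions were defined on autosomes, and it is given here as data outside the main measurement. By the same rule it held 126 regions of 293T and K562 without LNCap, and chromosome Y held 1. Those on X made up 0.768% of its 16401 merged regions, close to the 0.763% on autosomes. LNCap left out 65.6% (95% Wilson interval 58.7 to 72.0) of the 192 regions that 293T and K562 held on X, and the median scores were 2.4 in 293T and 2.3 in K562.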

How the results depend on the processing

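Of the recomputed values, 62 stayed within 1.5 times the count or within the 95% interval of the reported value, and 22 moved. An overlap of at least 25 bp put midpoints within 50 bp in 70.9% of regions. Merging up to 50 bp apart gave 46.9% for that share, 29.5 shared bases, 65.2% left out by LNCap and 12.9% with LNCap within 1000 bp. Regions with 1 silencer of each line and none of LNCap made up 64.0% of all those held by 293T and K562. With scores of at least 2.2 there were 1409 regions, 69.4% left out by LNCap, medians of 2.6 (293T) and 2.5 (K562), and 15.1% near LNCap. With scores of at least 2.5 there were 570 regions, 76.1% left out, medians of 2.9 and 2.8, 69.6% with close midpoints, 9.47% near LNCap and 5.61% on chromosome 19. Raising the cut shortens all 3 lists, and a region can then qualify because its LNCap silencer scored lower. Requiring no LNCap silencer within 500 bp left 56.6% of the regions of 293T and K562, of which 5.47% had one within 1000 bp, as that choice fixes. With touching intervals merged, a choice made after seeing the data, 63.7% had close midpoints and 18.1% lay near LNCap. The shares near LNCap of regions of 1 line, printed beside the reported ones, were recomputed after the results were seen. Leaving out infinite scores, adding chromosome X and averaging scores within a region moved none of the values recomputed under them. Alternatives on gene models, gene starts and base composition were not run, for lack of a human annotation. Depth is unknown, so calls close to the score cutoff cannot be weighed by their reads. No paired analysis was possible because each line has 1 list and no test was made.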
